A study of Mus musculus with 12 samples.

Results

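The genes for the proteins of the cytosolic ribosome were followed in mouse peritoneal macrophages with and without the receptor GPR15, at rest and after lipopolysaccharide (LPS). Members were chosen by symbol alone: a gene counted if its symbol begins with Rpl or Rps followed by a digit or a p, pseudogene symbols ending in -ps and the Rps6k kinases left out. The rule gave 88 of the 22911 genes named on the array, of which 46 carry names of large-subunit proteins, 30 those of small-subunit proteins, and 12 are paralogs, retrocopies or, in the case of Rps19bp1, a binding partner of a ribosomal protein. Of these, 85 passed the filter on dim probes and were among the 13283 genes tested. Rpl10l and Rpl3l, known from testis and from striated muscle, were not well above background on any of the 12 arrays, and the single probe for Rpl37 was so on 2 of 12.

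RNA from 12 samples was hybridised to one-colour Agilent arrays, 3 for each of 4 groups. Macrophages came from the abdominal cavity of C57/BL6 mice, either wildtype (WT) or carrying the knockout labelled GPR15KO, and were kept in DMEM with fetal bovine serum. For 4 h they received either phosphate-buffered saline (PBS) or LPS, the endotoxin of Gram-negative bacteria, at 100 ng/ml. The 4 groups are thus WT with PBS, WT with LPS, KO with PBS and KO with LPS. How the allele was made, the age of the mice and whether replicates came from separate mice are not given in the sources used here, so a p-value measures the spread between these samples, which may be technical.

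A cytosolic ribosome is built from ribosomal RNA and one copy of nearly every ribosomal protein, so the protein genes are usually expressed together and at very high levels. Their messenger RNAs begin with a terminal oligopyrimidine (TOP) tract, a C followed by a run of C and T, through which the kinase mTORC1 controls their translation. New ribosomes are put together in the nucleolus by a large set of assembly factors that leave before the ribosome begins to work. Several ribosomal proteins also act away from the ribosome, among them Rpl5 and Rpl11, which bind the p53 ligase Mdm2, and Rpl13a, which silences inflammatory messenger RNAs in myeloid cells.

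A level here is the log2 processed signal of the brightest probe for a gene minus the 75th percentile of all spots on that array. A member was called higher or lower at a limma adjusted p below 0.05, corrected over all 13283 genes, and differences are given ± SE with n = 3 arrays a group. Between 48.8% and 57.1% of spots were well above background on each array. The only probe for Gpr15 was well above background on 0 of 12 arrays, WT arrays included, so it gives no check of the genotype labels. All 14 genes of an LPS response list were higher with LPS in both genotypes. All 10 macrophage markers were measured, with a summed scaled signal between 697 and 801 on the arrays. All 8 B-cell markers were measured too, and their sum was 131.9 to 167.4 in WT with PBS, 67.6 to 80.2 in WT with LPS, 110.1 to 116.2 in KO with PBS and 54.0 to 54.9 in KO with LPS. No mesothelial marker of 4 and 1 fibroblast marker of 4 passed the filter. Xist was well above background on 6 WT and 0 KO arrays, and the Y-linked genes Ddx3y, Kdm5d and Uty on 0 WT and 6 KO arrays. Y-linked Eif2s3y was so on 1 WT and 6 KO arrays, and genotype and sex cannot be told apart. The first of 2 slides carried every WT array together with the KO PBS replicates 1 and 2. The second carried KO PBS replicate 3 together with the 3 KO arrays given LPS.

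Most ribosomal protein genes sat near the top of the signal range on every array, and their shared level moved little. A few were far dimmer, such as Rpl39l at -3.20, Rps23rg1 at -0.42 and Rpl7l1 at 0.18 on average in WT with PBS. The median level of the 85 members was 7.25, 7.23 and 7.27 in WT with PBS and 7.43, 7.51 and 7.47 in WT with LPS. It was 7.31, 7.30 and 7.11 in KO with PBS and 7.29, 7.31 and 7.32 in KO with LPS. The WT LPS arrays were thus the highest and KO PBS replicate 3, the only PBS array on its slide, the lowest. The 99th percentile of all spots, measured on the same scale, was 7.32, 7.29 and 7.28 in WT with PBS, 7.44, 7.56 and 7.44 in WT with LPS, and 7.31, 7.31 and 7.22 in KO with PBS. In KO with LPS it was 7.31, 7.33 and 7.32. The upper percentile was highest in WT with LPS and lowest on KO PBS replicate 3 among the KO arrays, as the member median was. Beyond the scalings reported here, its part in the shift was not tested.

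**Figure D1:**
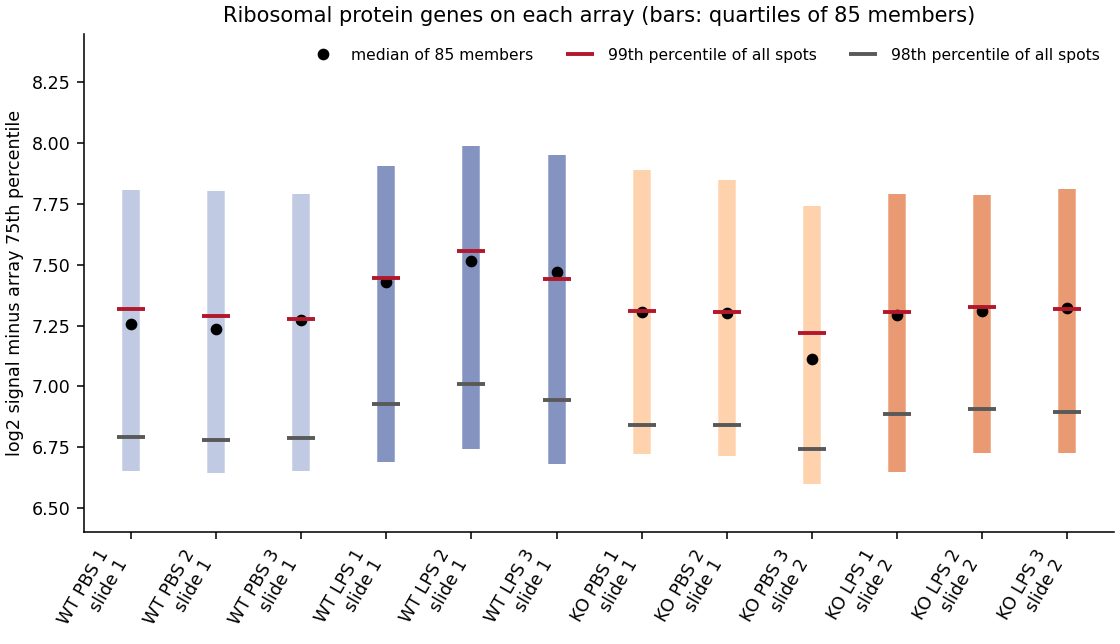
Level of the 85 ribosomal protein genes on each of the 12 arrays, in log2 signal minus the array's 75th percentile. Coloured bars span the lower to the upper quartile of members, black points are the member medians (7.11 to 7.51), and red and grey lines mark the 99th and 98th percentile of all spots, which are highest on the WT LPS arrays as the medians are.

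In WT macrophages LPS raised 53 of 85 members and lowered 3, with 29 not called, against 33.7% of all tested genes called higher and 31% called lower (64.7% in either direction), but this excess of higher calls was not seen after quantile normalization, which called 8 higher and 17 lower. The median member was 0.17 higher on the log2 scale, a 1.12-fold difference, beside 0.03 for all genes tested. Only 2 called members, Rpl7l1 and Rps19bp1, differed by more than 1.5-fold. Groups did not overlap for 66 members that were higher and 5 that were lower, beside 36.8% and 32.6% of all genes. By subunit, 29 of 45 large-subunit genes rose and 2 fell, 17 of 30 small-subunit genes rose and 1 fell, and 7 of 10 paralogs and related genes rose.

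The shared shift depended on the scaling between arrays. The median difference of the 85 members with LPS in WT was 0.21 after median scaling and 0.15 after normexp background correction, with 51 and 40 members called higher and 2 and 4 called lower. After quantile normalization, which gives every array the same distribution and so the same upper percentiles, it was -0.0046. Under all 4 scalings 8 of the 53 members kept a higher call: Rpl7l1, Rps19bp1, Rpl22l1, Rpl10a, Rpl15, Rpl7a, Rpl18 and Rps27a. Likewise 2 of the 3 lower calls were kept, for Rpl37a and Rpl36a. Without WT LPS replicate 2, whose member median was the highest, 37 members were called higher. Of the 36 tested members named by rule, quantile normalization lost the call of 18 of 21 that rose in WT and gave lower calls to 6 that were not called. In RNA from bulk cultures, fewer cells of a type and less RNA per cell cannot be told apart, and the part of the fall in B-cell markers in these differences was not tested.

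**Figure D2:**
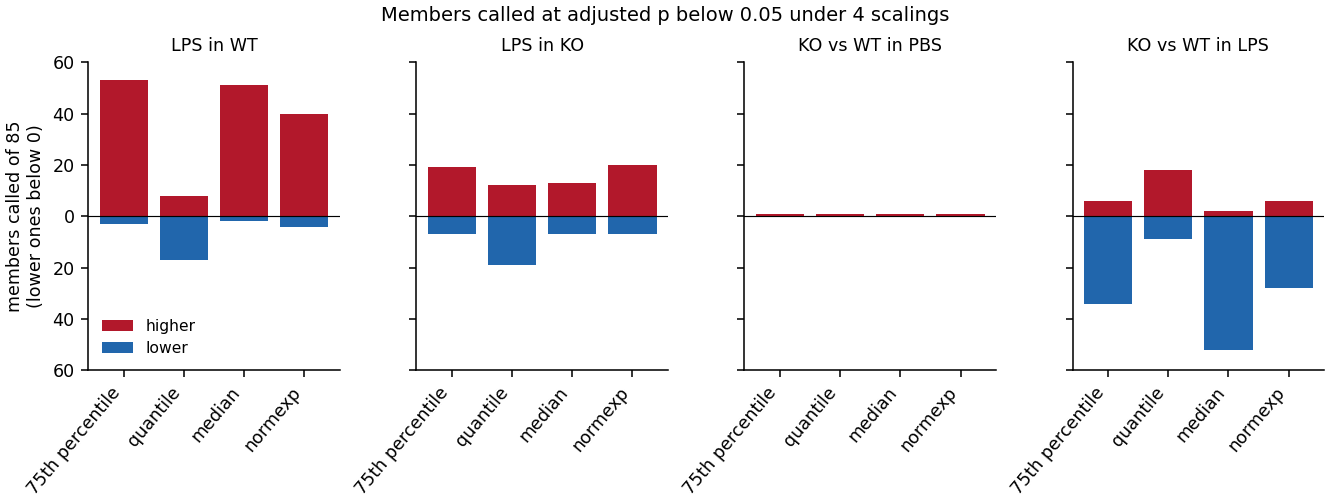
Number of the 85 members called higher (red, above 0) or lower (blue, below 0) at an adjusted p below 0.05 under 4 ways of scaling the arrays, for 4 comparisons. For LPS in WT the 53 higher calls with 75th-percentile scaling become 8 under quantile normalization, and for KO against WT after LPS the 34 lower calls become 9.

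In KO macrophages LPS raised 19 members and lowered 7, and 59 were not called, against 35.1% of all tested genes called higher and 32% called lower (67% in either direction). The median difference was 0.04, a 1.03-fold difference, and the median of all genes was also 0.04. Only 2 called members, Rpl7l1 and Rpl39l, differed by more than 1.5-fold. Large-subunit genes gave 8 higher and 3 lower calls, small-subunit genes 3 and 4, and the paralogs and related genes 8 and 0 of 10. Under all 4 scalings 10 of the 19 higher calls were kept, for Rpl7l1, Rpl39l, Rps23rg1, Rpl5, Rpl22l1, Rpl36al, Rps19bp1, Rps3a1, Rpl3 and Rps7, as were 6 of the 7 lower calls, those of Rpl37a, Rps15, Rps21 and Rps26 among them. KO PBS replicate 3 was the only KO PBS array on the slide of the KO LPS arrays, so without it LPS and slide cannot be told apart in KO. Groups did not overlap for 32 members that were higher and 7 that were lower, beside 37.5% and 34.6% of all genes. These counts depend on single arrays and on the slide: without KO PBS replicate 3 they were 20 higher and 16 lower, without KO LPS replicate 1 there were 12 higher, and on the second slide alone, where that PBS array is the only control and its spread is taken from the other group, 33 were higher and 4 lower.

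**Figure D3:**
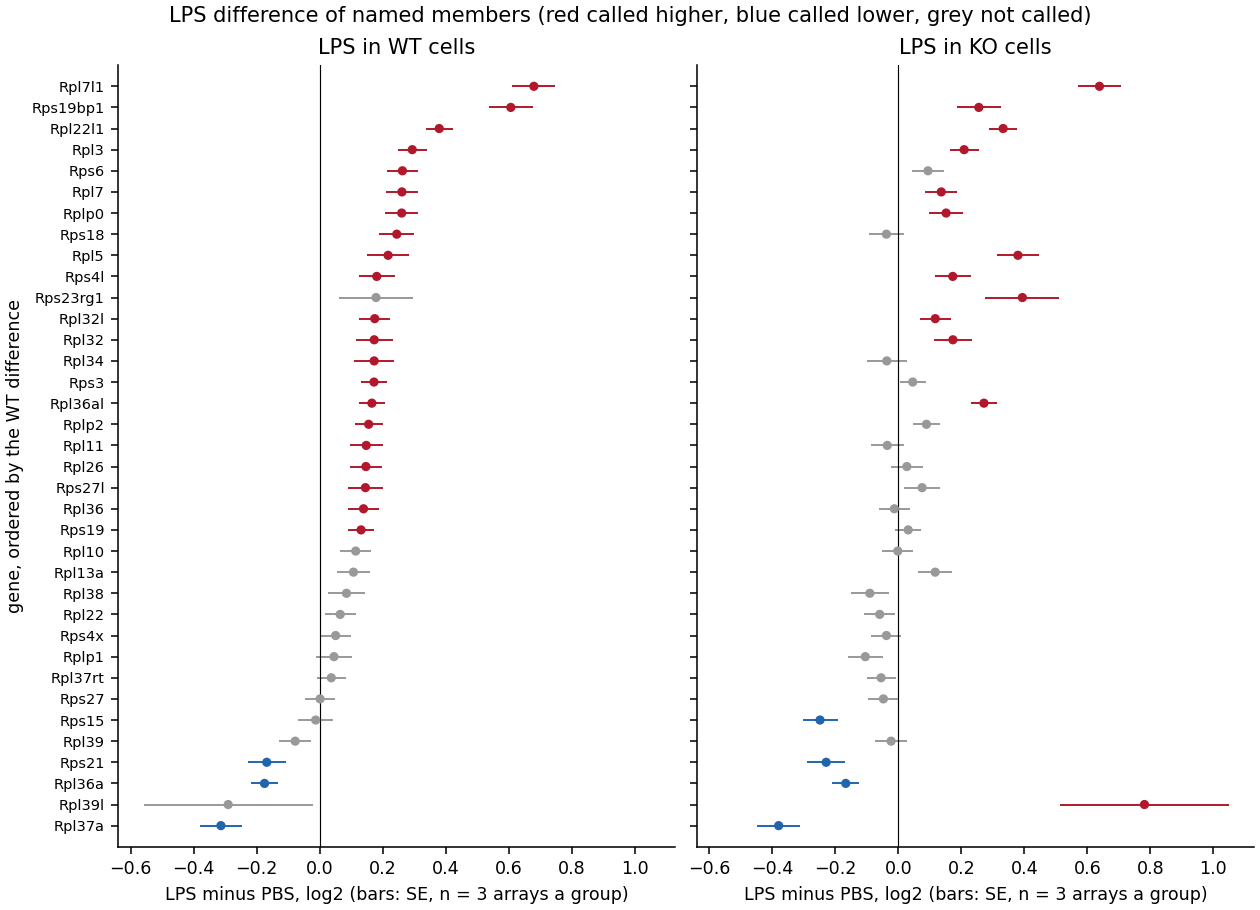
LPS minus PBS difference of the 36 tested members named by rule, in WT (left) and KO (right) cells, in log2, with bars showing the SE from 3 arrays a group and genes ordered by the WT difference. Red points were called higher, blue called lower and grey not called. Rpl7l1 (0.68 and 0.64) and Rpl22l1 (0.38 and 0.33) stand to the right and Rpl37a (-0.31 and -0.38) to the left in both panels, and 17 of the WT differences above 0, 9 of them called, turn below 0 under quantile normalization.

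Of the 3 genes of the ribosomal stalk, the flexible arm that recruits translation factors, 2 rose with LPS in WT and 1 in KO under 75th-percentile scaling, and none of these calls was kept under quantile normalization. Rplp0, its base, read 7.60, 7.58 and 7.61 in WT with PBS, 7.77, 7.89 and 7.92 in WT with LPS, 7.60, 7.62 and 7.74 in KO with PBS and 7.79, 7.84 and 7.78 in KO with LPS. It rose by 0.26 ± 0.05 in WT (limma adjusted p = 0.00101) and by 0.15 ± 0.05 in KO (adjusted p = 0.0249), with no overlap between PBS and LPS arrays. Quantile normalization gave 0.07 ± 0.06 and 0.12 ± 0.06 (adjusted p = 0.341 and 0.0874), and slide in the model 0.06 ± 0.06 in KO (adjusted p = 0.419). Rplp2, one of the acidic proteins that dimerise on that base, read 8.26, 8.19 and 8.19 in WT with PBS and 8.32, 8.43 and 8.35 with LPS, a rise of 0.16 ± 0.04 (adjusted p = 0.0081), and its KO difference of 0.09 ± 0.04 was not called (adjusted p = 0.0913). Quantile normalization gave Rplp2 0.07 ± 0.03 in WT (adjusted p = 0.108). Its partner Rplp1 read 7.66, 7.64 and 7.65 against 7.67, 7.72 and 7.69 in WT, a difference of 0.05 ± 0.06 that was not called (adjusted p = 0.498), and -0.10 ± 0.06 in KO (adjusted p = 0.114). Under quantile normalization Rplp1 was called lower in both, at -0.14 ± 0.04 in WT (adjusted p = 0.0151) and -0.15 ± 0.04 in KO (adjusted p = 0.00868).

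Among members with roles outside the ribosome, Rpl5 was called higher with LPS in both genotypes. It read 6.12, 6.09 and 5.99 in WT with PBS, 6.30, 6.38 and 6.18 in WT with LPS, 6.04, 6.02 and 6.23 in KO with PBS and 6.45, 6.48 and 6.49 in KO with LPS. The difference was 0.22 ± 0.07 in WT (adjusted p = 0.0124), where quantile normalization turned it to -0.0176, and 0.38 ± 0.07 in KO (adjusted p = 0.000327), where it was called under all 4 scalings. Rpl11, which joins Rpl5 and the 5S ribosomal RNA in binding Mdm2, rose in WT by 0.15 ± 0.05 (adjusted p = 0.0264), where quantile normalization gave 0.0012 (adjusted p = 0.982), and its KO difference was -0.04 ± 0.05 (adjusted p = 0.57). The test of that difference between genotypes did not pass (-0.18 ± 0.07, adjusted p = 0.191).

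Rps6, the small-subunit protein phosphorylated by the S6 kinases downstream of mTORC1, read 7.10, 7.08 and 7.03 in WT with PBS, 7.30, 7.42 and 7.28 in WT with LPS, 7.09, 7.09 and 7.0 in KO with PBS and 7.12, 7.18 and 7.17 in KO with LPS. It rose by 0.26 ± 0.05 in WT (adjusted p = 0.000586), and the KO difference of 0.09 ± 0.05 was not called (adjusted p = 0.114). Quantile normalization gave 0.08 ± 0.03 in WT, which was not called (adjusted p = 0.0699). Rps3, which lines the messenger RNA entry channel and can bind the NF-kappaB subunit p65, read 7.0, 6.98 and 7.0 against 7.14, 7.20 and 7.16 in WT, a rise of 0.17 ± 0.04 (adjusted p = 0.00288) that was -0.0033 after quantile normalization. Rps19, a protein mutated in Diamond-Blackfan anaemia, rose by 0.13 ± 0.04 in WT (adjusted p = 0.0148), with 0.02 ± 0.03 under quantile normalization (adjusted p = 0.567). Rpl26, which binds the messenger RNA of p53, rose by 0.15 ± 0.05 in WT (adjusted p = 0.0213), with -0.038 under quantile normalization. Rpl13a gave 0.11 ± 0.05 in WT (adjusted p = 0.0959) and 0.12 ± 0.05 in KO (adjusted p = 0.0691), and Rpl38, required for translation of Hox messenger RNAs in embryos, gave 0.09 ± 0.06 and -0.09 ± 0.06 (adjusted p = 0.234 and 0.2). Neither was called, but quantile normalization called Rpl38 lower in KO (-0.13 ± 0.05, adjusted p = 0.0391), and slide in the model called Rpl13a higher in WT (adjusted p = 0.0411).

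The 3 members with the largest LPS rises in WT were 2 paralogs and a binding partner of ribosomal proteins. Rpl7l1, a nucleolar paralog of Rpl7 that takes part in large-subunit assembly, read 0.17, 0.22 and 0.14 in WT with PBS and 0.88, 0.80 and 0.89 with LPS. In KO it read 0.25, 0.18 and 0.00 with PBS and 0.73, 0.76 and 0.86 with LPS. It rose 1.60-fold in WT (0.68 ± 0.07, adjusted p = 3.03e-06) and 1.56-fold in KO (0.64 ± 0.07, adjusted p = 5.96e-06), the groups were far apart in both, and the 4 scalings gave 0.58 to 0.72 in WT. Rpl7 itself rose by 0.26 ± 0.05 in WT (adjusted p = 0.000759) and 0.14 ± 0.05 in KO (adjusted p = 0.034), and under quantile normalization by 0.12 ± 0.04 in KO (adjusted p = 0.0154), while 0.07 ± 0.04 in WT was not called (adjusted p = 0.123).

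Rps19bp1, a nucleolar protein that binds Rps19 and is also called active regulator of SIRT1, read 2.51, 2.57 and 2.41 in WT with PBS and 3.13, 3.14 and 3.04 with LPS. In KO it read 2.45, 2.54 and 2.25 with PBS and 2.66, 2.68 and 2.68 with LPS. It rose 1.52-fold in WT (0.61 ± 0.07, adjusted p = 8.8e-06) and 1.19-fold in KO (0.26 ± 0.07, adjusted p = 0.00624), with no overlap in either. The test of the difference between genotypes missed the threshold (-0.35 ± 0.10, adjusted p = 0.0714). Without KO PBS replicate 3 that difference was -0.43 ± 0.07 (adjusted p = 0.00245), and with slide in the model it was -0.19 ± 0.08 (adjusted p = 0.345). The first of these fits leaves the KO PBS and KO LPS arrays on different slides.

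Rpl22l1, the paralog that can take the place of Rpl22 on the large subunit, read 5.71, 5.60 and 5.68 in WT with PBS and 6.01, 6.07 and 6.05 with LPS. In KO it read 5.77, 5.79 and 5.75 with PBS and 6.07, 6.09 and 6.14 with LPS. It rose by 0.38 ± 0.04 in WT (adjusted p = 9.12e-06) and by 0.33 ± 0.04 in KO (adjusted p = 3.16e-05), while Rpl22 gave 0.07 ± 0.05 in WT (adjusted p = 0.268) and -0.06 ± 0.05 in KO (adjusted p = 0.306) and was called in neither. Under quantile normalization Rpl22 was called lower in both, at -0.17 ± 0.04 in WT (adjusted p = 0.00195) and -0.14 ± 0.04 in KO (adjusted p = 0.0073).

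Of the other paralogs, Rpl36al, an autosomal copy of the X-linked Rpl36a, rose in both genotypes under 75th-percentile scaling while Rpl36a fell. Rpl36al read 5.02, 4.99 and 4.97 in WT with PBS, 5.12, 5.19 and 5.16 in WT with LPS, 5.0, 5.06 and 5.10 in KO with PBS and 5.33, 5.33 and 5.31 in KO with LPS. Its rise was 0.17 ± 0.04 in WT (adjusted p = 0.00377), where quantile normalization gave -0.0678, and 0.27 ± 0.04 in KO (adjusted p = 0.00011). Rpl36a read 6.73, 6.67 and 6.76 in WT with PBS, 6.52, 6.56 and 6.55 in WT with LPS, 6.85, 6.82 and 6.85 in KO with PBS and 6.65, 6.64 and 6.73 in KO with LPS. It fell by 0.17 in both, with an SE of 0.04 (adjusted p = 0.00341 in WT and 0.00469 in KO), and the groups did not overlap. The other probes for Rpl36a gave -0.27 ± 0.05, which was called, and -0.07 ± 0.05, which was not, in WT. Rpl32 and its copy Rpl32l gave 0.17 ± 0.06 and 0.17 ± 0.05 in WT and 0.17 ± 0.06 and 0.12 ± 0.05 in KO, all called. Quantile normalization gave -0.0035 and -0.002 in WT, and whether their probes share signal was not tested. Rps27l, a p53-induced paralog of Rps27, was called in WT (0.15 ± 0.06, adjusted p = 0.0386) although its PBS arrays at 4.58, 4.64 and 4.51 overlapped its LPS arrays at 4.76, 4.77 and 4.63, and quantile normalization gave -0.0649. Rps27 differed by 0.00 ± 0.05 in WT (adjusted p = 0.979), and quantile normalization called it lower in WT (-0.09 ± 0.03, adjusted p = 0.0326) and in KO (-0.08 ± 0.03, adjusted p = 0.0413).

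Rpl37a, a zinc-binding protein of the large subunit, had the largest called fall of the members in both genotypes. It read 8.32, 8.25 and 8.36 in WT with PBS and 7.96, 8.0 and 8.04 with LPS, and 8.40, 8.39 and 8.13 in KO with PBS and 7.94, 7.90 and 7.93 with LPS. The level was 1.24-fold lower in WT (-0.31 ± 0.07, adjusted p = 0.0015) and 1.30-fold lower in KO (-0.38 ± 0.07, adjusted p = 0.000389), with no overlap in either. With slide in the model the KO difference was -0.21 ± 0.06 (adjusted p = 0.0118). Rps21, a small-subunit protein, read 7.17, 7.21 and 7.18 in WT with PBS, 7.04, 7.10 and 6.91 in WT with LPS, 7.13, 7.14 and 6.97 in KO with PBS and 6.86, 6.88 and 6.81 in KO with LPS. It fell by 0.17 in WT and 0.23 in KO, each with an SE of 0.06 (adjusted p = 0.0281 and 0.00541). With slide in the model the KO difference was -0.12 ± 0.07 and was not called (adjusted p = 0.178). Rpl37rt, a retrotransposed copy of Rpl37, was not called with LPS (0.04 ± 0.05 in WT and -0.05 ± 0.05 in KO, adjusted p = 0.504 and 0.309), but was called lower in KO under quantile normalization (-0.10 ± 0.03, adjusted p = 0.0232). The Rpl37rt probe averaged 8.18 in WT with PBS, beside -4.31 for the Rpl37 probe, and whether it also reads Rpl37 was not tested.

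**Figure D4:**
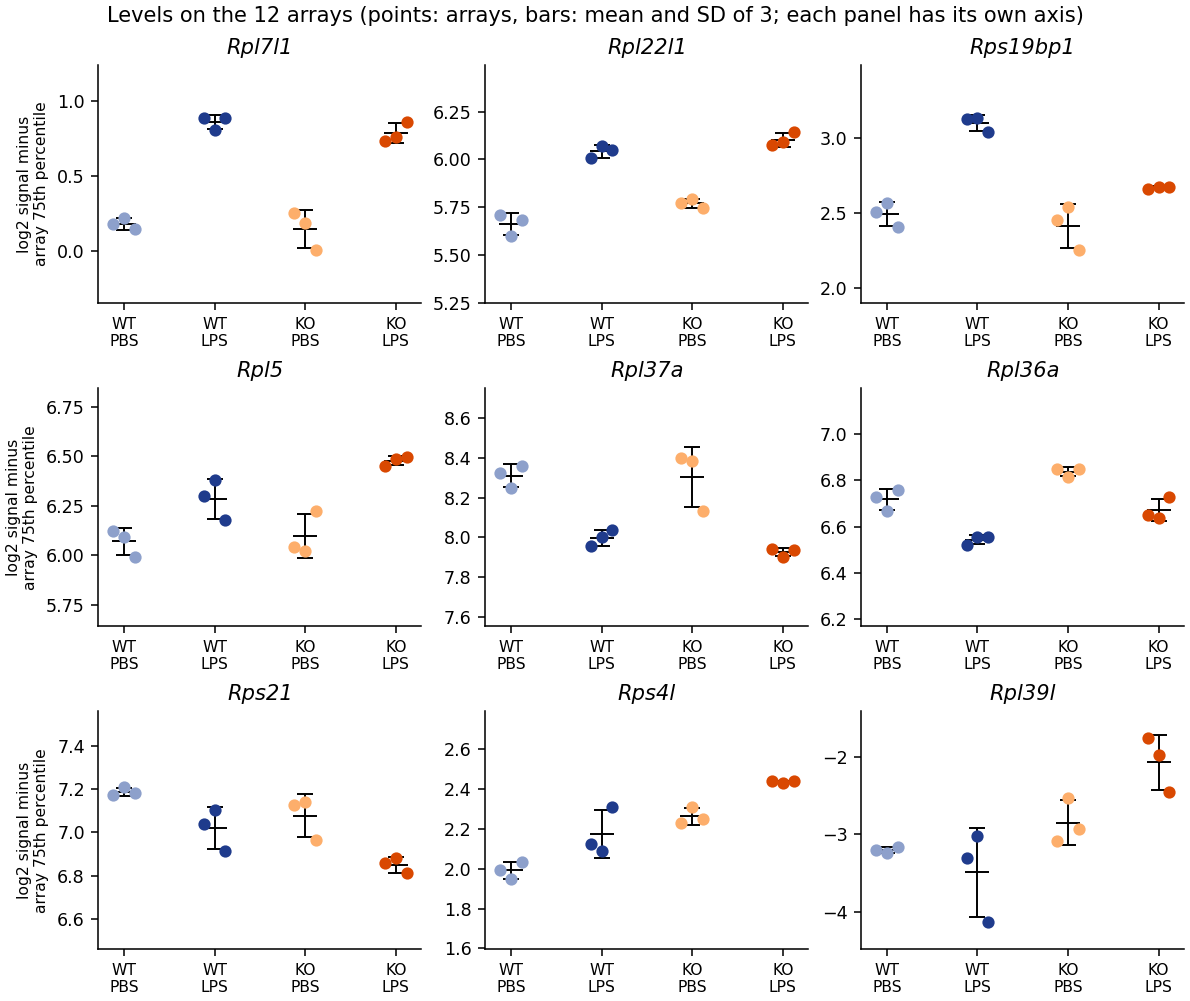
Level of 9 members on the 12 arrays, in log2 signal minus the array's 75th percentile, with each point an array, the bar the mean and SD of 3, and an axis of its own in each panel. Rpl7l1 and Rpl22l1 are higher and Rpl37a and Rpl36a lower on LPS arrays of both genotypes, Rps19bp1 is highest in WT with LPS, and Rpl39l is highest in KO with LPS.

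The start regions of 9 members show how unlike they are at the letters where the TOP tract lies. The 5 printed first are Rpl15, Rpl7a, Rpl18, Rpl10a and Rpl22l1, higher in WT under all 4 scalings. Then come Rpl7l1 and Rps19bp1, with the largest rises, and Rpl36a and Rpl37a, which fell. Each run holds 20 bases before and 20 from the annotated RefSeq start on, build GRCm38.p6, in the direction of transcription. Capitals mark the longest unbroken run of C and T. For Rpl10a the table holds 2 windows, of which the one shown is one.
Rpl15 (chr14:18270967-18271006, minus strand): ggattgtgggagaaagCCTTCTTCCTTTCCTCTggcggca
Rpl7a (chr2:26910787-26910826, plus strand): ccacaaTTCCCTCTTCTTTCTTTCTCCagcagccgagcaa
Rpl18 (chr7:45718051-45718090, plus strand): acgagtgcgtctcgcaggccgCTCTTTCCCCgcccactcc
Rpl10a (chr17:28328451-28328490, plus strand): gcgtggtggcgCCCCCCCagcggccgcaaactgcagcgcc
Rpl22l1 (chr3:28805488-28805527, plus strand): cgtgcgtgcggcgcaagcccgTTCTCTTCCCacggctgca
Rpl7l1 (chr17:46782637-46782676, minus strand): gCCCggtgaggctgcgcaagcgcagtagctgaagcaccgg
Rps19bp1 (chr15:80264287-80264326, minus strand): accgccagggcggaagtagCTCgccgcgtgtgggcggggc
Rpl36a (chrX:134585634-134585673, plus strand): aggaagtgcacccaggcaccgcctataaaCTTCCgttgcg
Rpl37a (chr1:72711240-72711279, plus strand): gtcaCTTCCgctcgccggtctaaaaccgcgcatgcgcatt
The longest run was 17 and 21 bases in Rpl15 and Rpl7a, 10 in Rpl18 and Rpl22l1, 7 in Rpl10a, 5 in Rpl36a and Rpl37a, and 3 in Rpl7l1 and Rps19bp1. The 2 genes with the largest rises thus had the shortest runs of these 9, which is a description of the letters at one annotated start and says nothing of how the genes are controlled.

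The promoter table, 250 bases before to 50 after each start, held 67 of the 88 members. A C at the annotated start followed by 4 or more C or T was present in 14 members (20.9%), beside 3.01% of all 27025 genes in the table. A run of 8 or more C or T within 20 bases of the start was present in 32 (47.8%), beside 18.4%, and CTTTCC on the sense strand in the same window in 11 (16.4%), beside 2.30%. Over the 300 bases and on both strands, CCGGAAG, a core bound by Ets factors such as GABP, was found in 25 (37.3% beside 9.93%), and AAGATGG, the core of a YY1 site, in 10 (14.9% beside 7.28%). GGGCGG, a core bound by Sp1, was in 40 (59.7% beside 38.2%), and TATAAA on the sense strand in 7 (10.4% beside 9.77%).

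At rest the genotypes differed little at these genes. Of 85 members 1 was higher in KO with PBS and 0 were lower, beside 8.06% and 6.05% of all genes (14.1% in either direction), and limma's unadjusted p was under 0.05 for 8. The median difference was 0.01 for members and for all genes. Groups did not overlap for 9 members that were higher in KO and 2 that were lower, beside 16.7% and 13.8% of all genes. The called member was Rps4l, which the RefSeq table lists as a transcribed pseudogene. It read 1.99, 1.95 and 2.03 in WT with PBS, 2.12, 2.09 and 2.31 in WT with LPS, 2.23, 2.31 and 2.25 in KO with PBS and 2.44, 2.43 and 2.44 in KO with LPS. It was 1.21-fold higher in KO with PBS (0.27 ± 0.06, adjusted p = 0.0105) and 1.20-fold higher in KO with LPS (0.26 ± 0.06, adjusted p = 0.00486), with no overlap in either. Its LPS rise was 0.18 ± 0.06 in WT and 0.17 ± 0.06 in KO (adjusted p = 0.0152 and 0.0191). On the first slide alone the PBS difference was 0.28 ± 0.07 (adjusted p = 0.0564). Without WT PBS replicate 3, or without KO PBS replicate 3, 3 members were called.

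The 4 X-linked members are given on their own, since Xist was well above background on WT arrays only. The part of sex in their differences was not tested. In PBS the KO minus WT difference was 0.13 ± 0.05 for Rps4x (adjusted p = 0.0894). It was 0.12 ± 0.04 for Rpl36a (adjusted p = 0.0865), 0.06 ± 0.05 for Rpl39 (adjusted p = 0.482) and -0.02 ± 0.05 for Rpl10 (adjusted p = 0.814). None was called, although another of the 3 probes for Rpl36a was (0.19 ± 0.05, adjusted p = 0.032). After LPS Rpl36a was called higher in KO (0.13 ± 0.04, adjusted p = 0.0346) and Rpl10 lower (-0.14 ± 0.05, adjusted p = 0.0465). With slide in the model these were 0.11 ± 0.07 and -0.04 ± 0.07, and neither was called (adjusted p = 0.395 and 0.826). Without slide in the model, the probe that stood for Rpl39 gave 0.11 ± 0.05 after LPS and was not called (adjusted p = 0.0993). Other Rpl39 probes were split. Those at 0.15 ± 0.04 and 0.24 ± 0.05 were called higher in KO (adjusted p = 0.0111 and 0.00605), and those at -0.0026 ± 0.04 and 0.02 ± 0.05 were not called. With PBS, Rps4x read 6.63, 6.56 and 6.58 in WT and 6.78, 6.72 and 6.67 in KO, so its PBS groups did not overlap. With slide in the model its PBS difference of 0.16 ± 0.05 was called (adjusted p = 0.0481). After LPS its groups overlapped and the difference of 0.04 ± 0.05 was not called (adjusted p = 0.503).

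After LPS 34 members were lower in KO than in WT and 6 were higher, with 45 not called, beside 19.5% and 20% of all genes (39.5% in either direction), but quantile normalization turned the balance to 9 lower and 18 higher. The median difference was -0.10, beside -0.01 for all genes, and 0.0057 under quantile normalization. Groups did not overlap for 53 lower and 8 higher members, beside 30.1% and 28.2% of all genes. By subunit, 19 of 45 large-subunit genes were lower and 2 higher, and 14 of 30 small-subunit genes were lower and 0 higher. Of the 10 paralogs and related genes 1 was lower and 4 were higher. Median scaling, which moved the median of all genes by -0.11 in this comparison, called 52 lower and 2 higher.

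The LPS arrays of the 2 genotypes lay on different slides, and no slide held both. With slide in the model, an effect that only the KO PBS arrays can estimate, 0 members were called in either direction and the median difference was -0.02, so for these members genotype and slide cannot be told apart. Single arrays mattered as well: 14 members were lower without WT LPS replicate 2, 16 without KO LPS replicate 1, and 19 without KO LPS replicate 2 or 3. Under all 4 scalings 8 of the 34 lower calls were kept, those of Rps19bp1, Rps18, Rpl34 and Rps15 among them, and 2 of the 6 higher calls, for Rpl39l and Rps23rg1.

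Rps18, a protein of the head of the small subunit, read 8.84, 8.81 and 8.77 in WT with PBS, 9.01, 9.11 and 9.03 in WT with LPS, 8.83, 8.82 and 8.67 in KO with PBS and 8.75, 8.71 and 8.75 in KO with LPS. Only the WT LPS arrays stood apart, above all others. The KO minus WT difference after LPS was -0.32 ± 0.06 (adjusted p = 0.00146), and -0.16 ± 0.07 with slide in the model (adjusted p = 0.243). Rps15, another protein of the small-subunit head, read 6.69, 6.73 and 6.74 in WT with LPS and 6.44, 6.41 and 6.47 in KO with LPS, while the PBS arrays held 6.72, 6.71 and 6.76 in WT and 6.72, 6.79 and 6.56 in KO. Here the KO LPS arrays stood apart, below all others. Its difference was -0.28 ± 0.06 (adjusted p = 0.00284), and -0.09 ± 0.06 with slide in the model (adjusted p = 0.475). Rpl34, a large-subunit protein, gave -0.29 ± 0.06 (adjusted p = 0.00484), and -0.05 ± 0.07 with slide in the model (adjusted p = 0.738). For Rps19bp1 the difference was -0.43 ± 0.07 (adjusted p = 0.000926), and -0.19 ± 0.09 with slide in the model (adjusted p = 0.233).

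Of the higher members, Rpl39l, a paralog of Rpl39 known from male germ cells, had the largest difference and a dim probe. It read -3.21, -3.24 and -3.16 in WT with PBS, -3.31, -3.03 and -4.13 in WT with LPS, -3.09, -2.53 and -2.93 in KO with PBS and -1.76, -1.98 and -2.46 in KO with LPS, and was well above background on 11 of 12 arrays. Its KO LPS arrays lay above all others. With LPS it rose by 0.78 ± 0.27 in KO (adjusted p = 0.0221), and its WT difference of -0.29 ± 0.27 was not called (adjusted p = 0.367). It was 2.68-fold higher in KO than in WT after LPS (1.42 ± 0.27, adjusted p = 0.00224), and the difference was 1.55 ± 0.50 with slide in the model (adjusted p = 0.104). After normexp background correction it was 0.73, and the call was kept. Rps23rg1, a retroposed copy of Rps23, read -0.33 and -0.36 on the KO PBS arrays of the first slide and 0.16 on that of the second, where the KO LPS arrays read 0.20, 0.22 and 0.24. The WT arrays, all on the first slide, read -0.50, -0.49 and -0.28 with PBS and -0.21, -0.26 and -0.25 with LPS. Its difference of 0.46 ± 0.12 after LPS (adjusted p = 0.01) and its LPS rise of 0.39 ± 0.12 in KO (adjusted p = 0.0108) became -0.04 ± 0.11 and 0.06 ± 0.09 with slide in the model (adjusted p = 0.865 and 0.597). Whether the Rps23rg1 probe shares signal with Rps23 was not tested.

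Whether the LPS difference itself depended on genotype was tested by the interaction. No member of 85 was called higher or lower by limma, beside 0.926% and 3.39% of all genes (4.31% in either direction), and 21 had an unadjusted p under 0.05. The median was -0.11, beside -0.01 for all genes, and 0.0039 under quantile normalization. Rps18 came with -0.28 ± 0.08 (adjusted p = 0.0686). Without KO PBS replicate 3, the PBS array on the second slide, 30 members were called lower and 1, Rps23rg1, higher. That fit leaves every KO PBS array on the first slide and every KO LPS array on the second. In it LPS and slide cannot be told apart in KO, and its share over all genes is not given here.

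Most ribosome assembly genes rose with LPS in both genotypes. Of all genes tested, 33.7% were higher and 31% lower in WT, and 35.1% and 32% in KO. Of 73 assembly and nucleolar genes tested, 71 rose and 0 fell in WT, with a median of 1.00 on the log2 scale, a 2.00-fold difference, and in KO 71 rose and 0 fell, with a median of 0.93. Quantile normalization left 67 higher and 1 lower in WT and 68 and 0 in KO. The genes with the smallest p were Wdr43 (1.48 ± 0.05 in WT, 1.39 ± 0.05 in KO), a small-subunit processome factor, Ppan (1.40 ± 0.04 and 1.35 ± 0.04), needed for large-subunit maturation, and Nop2 (1.29 ± 0.04 and 1.24 ± 0.04), an RNA methyltransferase of the nucleolus, each with an adjusted p of at most 1.09e-09 in both. Of the subunits and factors of RNA polymerases I and III, which make ribosomal RNA and transfer RNA, 15 of 23 rose and 3 fell in each genotype, with medians of 0.54 in WT and 0.48 in KO. Polr1b, the second-largest subunit of polymerase I, rose by 1.54 ± 0.05 in WT and 1.42 ± 0.05 in KO, and Polr1e by 1.29 ± 0.05 and 1.22 ± 0.05.

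Among the factors that work with the finished ribosome, 30 of 35 initiation factors rose and 0 fell in WT (median 0.48), and 28 rose and 2 fell in KO (median 0.37). Beside these counts, 64.7% of all genes were called in WT and 67% in KO, in either direction. Under quantile normalization 22 rose and 5 fell in WT, and 22 and 4 in KO. Eif2s2, a subunit of the factor that carries the initiator tRNA, rose by 1.04 ± 0.06 in WT and 1.11 ± 0.06 in KO. Of 11 elongation and termination factors, 9 rose and 1 fell in each genotype, with medians of 0.32 and 0.35, and with quantile normalization 5 rose and 1 fell in WT, and 7 and 1 in KO. Abce1, which splits ribosomes after termination, rose by 0.87 ± 0.04 in WT and 0.69 ± 0.04 in KO, and Eef2k, the kinase that inhibits elongation factor 2, fell by 1.39 in WT and 1.16 in KO, each with an SE of 0.09.

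**Figure D5:**
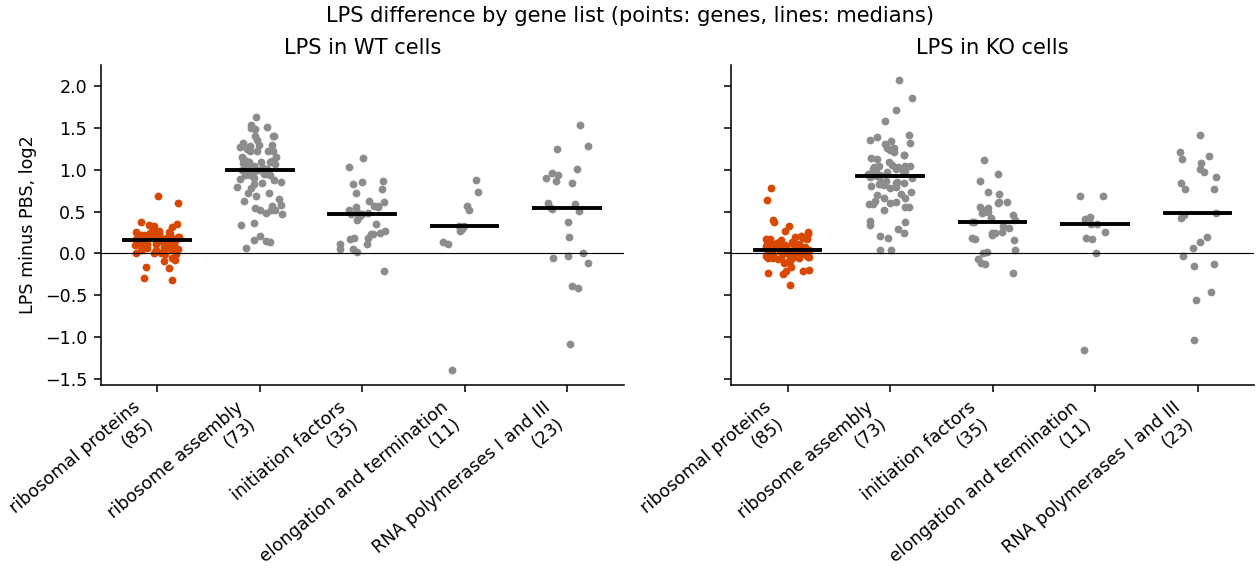
LPS minus PBS difference in log2 for each gene of 5 lists in WT (left) and KO (right) cells, with the number of genes tested in parentheses, points for genes and black lines for medians. Ribosome assembly genes have medians of 1.00 and 0.93, beside 0.17 and 0.04 for the ribosomal proteins, whose WT median is -0.0046 under quantile normalization.

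Other messenger RNAs with a TOP tract, from a list of 22 genes tested, gave 15 higher and 0 lower calls in WT (median 0.22) and 11 and 1 in KO (median 0.15), and after quantile normalization 5 and 3 in WT and 8 and 3 in KO. Of all genes, 33.7% were called higher and 31% lower in WT, and 35.1% and 32% in KO, which holds beside each list here. Npm1, a nucleolar chaperone, had the smallest p among them, with a rise of 1.03 ± 0.06 in WT and 0.78 ± 0.06 in KO. Rack1, a small-subunit protein whose symbol falls outside the naming rule, rose with LPS by 0.22 ± 0.04 in WT (adjusted p = 0.000675) and 0.15 ± 0.04 in KO (adjusted p = 0.00901). In the list of mTORC1 parts and regulators of TOP messenger RNAs, 12 of 23 genes rose and 8 fell in WT, and 10 rose and 10 fell in KO. Quantile normalization gave 12 and 8 in WT and 8 and 10 in KO. Myc, a transcription factor that drives ribosome production, rose by 2.27 ± 0.07 in WT and 2.50 ± 0.07 in KO, and Ddit4, an inhibitor of mTORC1, by 1.72 ± 0.06 and 1.74 ± 0.06. Larp1, which binds the TOP tract, rose by 1.12 ± 0.06 in WT. Of 22 p53 targets and ribosome surveillance genes, 14 rose and 5 fell in WT and 16 rose and 4 fell in KO, and after quantile normalization 12 and 6 in WT and 15 and 5 in KO. Bbc3, a p53 target that promotes cell death, rose by 1.22 ± 0.08 in WT and 1.06 ± 0.08 in KO, and Sesn1, a p53 target that restrains mTORC1, fell by 1.33 and 1.29, each with an SE of 0.08.

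Most members were measured by more than 1 probe, which allows a check within genes. The array carried 1 probe for 42 members and several for 46. Of the 45 tested members with several kept probes, 0 had a probe called higher and another called lower with LPS in either genotype. For LPS in WT 36 of the 45 had a probe with a call, and all probes were called higher in 22. For LPS in KO 22 had such a probe, and all probes were called higher in 1 and lower in 1. For KO against WT after LPS 29 had such a probe, and all probes were called lower in 10 and higher in 0. The like counts over all genes with several probes are not given here, so these have no share to stand beside. By the brightest probe alone, 64.7% of all genes were called with LPS in WT and 67% in KO. For KO against WT after LPS the share was 39.5%. After LPS 1 member, Rpl7a, had a probe called higher and another called lower in KO against WT, at 0.26 ± 0.07 and -0.20 ± 0.06. With LPS in WT the same 2 probes gave 0.17 ± 0.07, not called, and 0.33 ± 0.06, called. In KO they gave 0.31 ± 0.07, called, and 0.04 ± 0.06, not called. The second of these probes stood for the gene.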

How the data were processed

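RNA of 12 macrophage samples was measured on one-colour Agilent arrays. The deposited files hold signal intensity per spot as written by Agilent Feature Extraction, version 11.5.1.1 per the submitters' processing notes, with the background-corrected processed signal used here as the authors deposited it. Its log2 was computed here and reduced by each array's 75th percentile over non-control spots, since no deposited log2 values were used. Spots marked as outliers were left out when a probe's spots were averaged. Of 56605 probes, 32994 matched a RefSeq symbol (assembly GRCm38.p6), and 28827 were kept, each well above background throughout the 3 arrays of some group. The brightest probe stood for a gene. The build in the file headers is an earlier one, so positions come from the RefSeq tables alone.

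One model with a mean per group was fitted over all 12 arrays and 13283 genes with limma 3.58.1 in R 4.3.3, with a trend in the variance, two-sided tests, Benjamini-Hochberg adjustment per comparison and a threshold of 0.05. The script was tested on simulated data. Normexp (offset 50) used the median spot and background signals, because the files hold no mean signal. Groups and replicate numbers come from the titles. Array deviations of equal number correlated at 0.105, 0.371 and 0.481 between WT with PBS and WT with LPS, and at 0.0405, 0.113 and 0.0807 in KO. Arrays of unequal number were not compared, so this check cannot tell whether the numbers pair the samples, and the labels do not say. The number of arrays limits the precision.

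Named members were the stalk proteins, paralog pairs, proteins with known roles outside translation, X-linked members and the 3 largest called differences each way per comparison, if well above background on all arrays compared and without overlap. Members kept under all scalings, and the start regions printed, were picked after their values were seen. Of pathway lists, up to 3 called genes with the smallest p were eligible. The members and all lists were chosen with earlier results of these data known. Results of a few single genes are not reported here.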

Additional observations from a re-analysis of the deposited data

How the results depend on the processing

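Of 63 called differences of named members, those of 14 changed sign under an alternative, and none of these was called there. For LPS in WT, quantile normalization gave -0.038 for Rpl26, -0.0035 for Rpl32, -0.002 for Rpl32l, -0.0131 for Rpl34, -0.0381 for Rpl36, -0.0678 for Rpl36al, -0.0176 for Rpl5, -0.0649 for Rps27l and -0.0033 for Rps3. For KO against WT after LPS it gave 0.0 for Rpl7, and slide in the model gave 0.0046 for Rpl36, 0.0325 for Rpl38, -0.002 for Rpl5 and -0.0432 for Rps23rg1. The cause was not tested. For LPS in WT, quantile normalization gave 8 higher and 17 lower calls (median -0.0046), and the mean over probes 5 lower. For LPS in KO, quantile normalization gave 12 and 19, no filter 12 higher, slide in the model 2 lower, and the second slide alone, an alternative chosen after seeing the data, 33 and 4. For KO against WT in PBS the higher calls were 2 with the mean over probes, 3 with slide in the model and 0 on the first slide alone. After LPS, KO against WT gave 18 higher and 9 lower (median 0.0057) with quantile normalization, 2 and 52 (median -0.21) with median scaling, 13 lower with no filter, and 0 and 0 (median -0.0246) with slide in the model. The interaction gave 1 lower call with normexp and 1 with the replicate block, and a median of 0.0039 with quantile normalization.

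Leaving out 1 array at a time gave 37 to 52 higher and 2 to 3 lower calls for LPS in WT (median 0.13 to 0.18), and 12 to 20 and 7 to 16 for LPS in KO (median 0.0068 to 0.05). KO against WT gave 1 to 3 higher and 0 lower in PBS (median -0.0086 to 0.03) and 4 to 5 higher and 14 to 29 lower after LPS (median -0.13 to -0.08). The interaction gave 0 to 1 higher and 0 to 30 lower (median -0.15 to -0.08). The 30 came without KO PBS replicate 3, a fit in which LPS and slide cannot be told apart in KO. The replicate block gave 51 higher and 3 lower for LPS in WT, 17 and 7 for LPS in KO, 1 and 0 for KO against WT in PBS and 5 and 32 after LPS. Whether equal numbers mark paired samples is not known. Rpl39l is dim, so its differences are the least precise of the members described.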

Other observations

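Ribosome assembly genes also differed between genotypes after LPS: of 73 tested, 24 were lower and 4 higher in KO than in WT, with a median of -0.11, beside 19.5% lower and 20% higher of all genes. Quantile normalization gave 17 lower and 8 higher, and median scaling 40 and 2. With slide in the model 0 were called in either direction and the median was -0.02. The genes with the smallest p were Wdr43 (-0.27 ± 0.05, limma adjusted p = 0.00167), Ncl, the nucleolar protein nucleolin (-0.29 ± 0.05, adjusted p = 0.00176), and Rrp1 (-0.29 ± 0.06, adjusted p = 0.00255). A negative interaction means that the LPS difference is lower in KO than in WT, not that the level is. Of the 23 genes of the mTORC1 list 2 were called negative and 0 positive, beside 3.39% and 0.926% of all genes. They were Max, the partner of Myc (-0.63 ± 0.11, adjusted p = 0.00428), and Larp1 (-0.32 ± 0.08, adjusted p = 0.0403). Quantile normalization called 1 gene of this list negative. Pabpc1, the poly(A)-binding protein, of the TOP list was also called negative (-0.27 ± 0.06, adjusted p = 0.0202), a call not seen under quantile normalization. It was higher in KO than in WT with PBS (0.24 ± 0.04, adjusted p = 0.00351). Pmaip1, a p53 target that promotes cell death, was called positive (0.50 ± 0.07, adjusted p = 0.000941). Of the genes listed to check the LPS response, the chemokines Cxcl10 (-2.02 ± 0.18, adjusted p = 4.54e-05) and Ccl5 (-0.87 ± 0.20, adjusted p = 0.0301) were called negative. Cxcl10 was already higher in KO than in WT with PBS (1.56 ± 0.13, adjusted p = 3.48e-05). Quantile normalization called 1 gene of that list negative and 2 positive. Among initiation factors, Eif3g was lower in KO after LPS by 0.45 (SE 0.05, adjusted p = 0.000137). It was called lower in KO with PBS as well (-0.22 ± 0.05, adjusted p = 0.0203), and its interaction was not called (-0.24 ± 0.07, adjusted p = 0.103). With slide in the model, negative interaction calls numbered 2 in the mTORC1 list, 1 in the TOP list and 1 in the LPS list. The p53 list then had 1 positive call. The interactions rest on KO LPS arrays that all lay on the second slide. With PBS these genotype values cannot be told apart from sex, and after LPS they cannot be told apart from slide and sex.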
